A study of Strongylocentrotus purpuratus with 6 samples.

Results

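RNA polymerase II (Pol II) peaks were examined at FoxJ1, FoxO and FoxG, 3 forkhead genes among the 37 developmental regulatory genes whose cis-regulatory modules (CRMs) had been tested in reporter constructs. A locus was taken as the stretch from the first to the last CRM of a gene plus 2 kb on each side. The 3 loci hold 21 of the 389 CRMs, with 6 at FoxJ1, 4 at FoxO and 11 at FoxG. They overlapped 77 of the 554846 peaks by 1 bp or more. Members were chosen by the names of the CRMs. The rule itself used no Pol II value, but earlier results of these data were known when the choice was made.

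The assay was ChIP-seq for Pol II in whole Strongylocentrotus purpuratus embryos at 20 h (hatching blastula), with 3 Pol II ChIP samples and 3 input samples. The antibody, 8WG16, recognises the heptad repeat of the Pol II C-terminal domain, and each ChIP has an input from the same chromatin extract. The peaks form 1 list made from the combined samples, which holds positions on the scaffolds of genome version 3.1 and no score, signal or count. Peak length and cover are therefore the measurements, the depth behind a peak is not in the list, and no spread between replicates and no test over samples could be computed. In whole embryos, Pol II in fewer cells and less Pol II per cell cannot be told apart. There is no treatment or second stage in the samples, so the comparisons are between loci and between parts of a locus.

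Forkhead (Fox) proteins are transcription factors that bind DNA through a winged-helix domain, the forkhead domain, shared by the whole family. FoxJ1 is known as a regulator of motile cilia genes, and hatching blastulae are ciliated and begin to swim. FoxO proteins act downstream of insulin and PI3K-Akt signalling, which keeps them out of the nucleus, and are known for roles in stress resistance, metabolism and lifespan. FoxG is known in vertebrates for forebrain development, and in sea urchin embryos as a gene of the oral ectoderm and ciliary band. Pol II accumulates at promoters and is spread over the bodies of transcribed genes, so that a long run of Pol II often follows a transcription unit and a short peak can mark a local site.

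The 3 loci had different Pol II patterns. FoxJ1 lay largely under 1 very long peak, FoxO held scattered short peaks only, and FoxG combined scattered short peaks over its upstream CRMs with 1 long peak over the border between upstream and downstream CRMs. Peaks covered 18032 of 22574 bp at FoxJ1 (79.9%), 9463 of 23851 bp at FoxO (39.7%) and 20154 of 42790 bp at FoxG (47.1%). The median over the loci of the other 34 genes was 58.8%, with quartiles of 46.7 and 70.4%. In the order of the 37 loci, FoxJ1 was at place 3, FoxG at 27 and FoxO at 29. Over the whole list, with each scaffold ending at its last peak, the same measure was 20.7%.

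**Figure D1:**
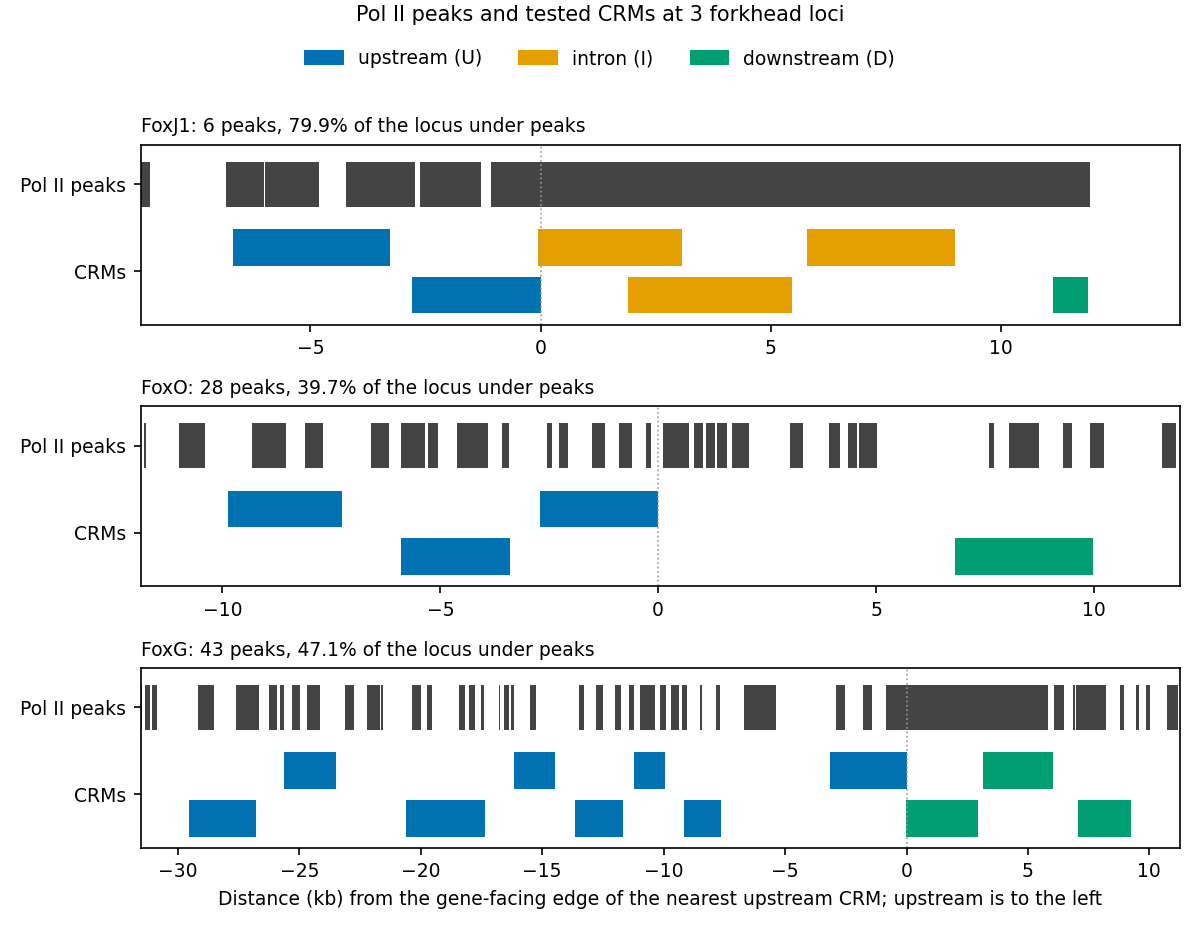
Pol II peaks (dark bars) and CRMs (coloured by the letter in their name) along the FoxJ1, FoxO and FoxG loci; the horizontal axis is distance in kb from the edge of the nearest upstream CRM that faces the gene, with upstream to the left, and each panel has its own scale. A single peak of 13002 bp fills most of FoxJ1, FoxO shows 28 peaks of at most 790 bp, and FoxG shows a 6047 bp peak across the edge.

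Few peaks carried the cover at FoxJ1. The FoxJ1 locus, on Scaffold378 from 177843 to 200416, had 6 peaks with a median length of 1247 bp, which is 0.266 peaks per kb against a median of 0.803 over the other 34 loci. The longest peak, from 179793 to 192794, was 13002 bp long. This is 59.9 times the median of 217 bp over all peaks, place 95 in the whole list and place 1 of 445 on its scaffold. It held 72.1% of the covered bases of the locus, against a median of 21.4% over the other 34 loci. Myc had fewer peaks per kb still (0.238, from 4 peaks), and its longest peak, of 10128 bp, held 89.5% of its covered bases. Without the 13002 bp peak the cover of FoxJ1 was 22.3%. The next FoxJ1 peaks in length were 1515 bp (194450 to 195964) and 1320 bp (193018 to 194337), both upstream of the long peak, with gaps of 223 and 112 bp. The median gap between neighbouring FoxJ1 peaks was 223 bp and the shortest 20 bp. The same median was 304.5 bp over the other 34 loci, with a lower quartile of 230.5 bp, and 557 bp over the whole list.

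FoxJ1 CRMs were covered almost throughout. The CRMs were named with the letters U, I and D, which follow each other in order along the 3 loci and were read as upstream, intron and downstream. The intron CRMs FoxJ1_If_01, FoxJ1_If_02 and FoxJ1_If_03 and the downstream CRM FoxJ1_Df_01 were each covered over 100% of their length, and each lay entirely under the same 13002 bp peak. The upstream CRM next to the gene, FoxJ1_Uf_01, had 2464 of 2799 bp under 3 peaks (88.0%), and its gene-facing end lay under the long peak too. FoxJ1_Uf_03, farther upstream, had the lowest cover of the gene, 2822 of 3423 bp under 3 peaks (82.4%). FoxJ1_If_01 and FoxJ1_If_02 share 1165 bp, and FoxJ1_If_01 and FoxJ1_Uf_01 share 49 bp. With 5 of the 6 CRMs touching 1 peak, the FoxJ1 values are close to a single observation rather than 6.

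The long FoxJ1 peak ended inside FoxJ1_Uf_01 on the upstream side. Downstream it stopped 50 bp past FoxJ1_Df_01, and the 2000 bp between that CRM and the border of the locus were covered over 2.5%. Upstream of FoxJ1_Uf_03 the outer 2000 bp were covered over 17.2%. All 3 stretches between FoxJ1 CRMs, of 2129, 335 and 466 bp, were covered over 100%. In the 20 kb beyond each border of the locus, cover was 34.7% on the low-coordinate side and 28.0% on the high-coordinate side, and no peak there was longer than 1491 bp.

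FoxO had many peaks and none of 1000 bp or more. Its locus, on Scaffold199 from 149516 to 173366, held 28 peaks of 64 to 790 bp with a median of 296.5 bp. This is 1.17 peaks per kb, place 3 of the 37 loci by density. Peaks of 1000 bp or more were 0 of 28 at FoxO, 4 of 6 at FoxJ1 and 3 of 43 at FoxG (6.98%), against 4.71% of the whole list. The median share over the other 34 loci was higher, 13.2%. None of these loci had a larger share than FoxJ1, 28 had a larger share than FoxG, and 33 a larger share than FoxO. The 3 longest FoxO peaks were 790 bp (170028 to 170817), 711 bp (165395 to 166105) and 668 bp (152756 to 153423). They lay in FoxO_Ur_03, FoxO_Ur_02 and FoxO_Dr_02, and 92.7% of all peaks in the list were shorter than the first of them. The longest FoxO peak held 8.35% of the covered bases of its locus, against a median of 21.4% over the other 34 loci.

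**Figure D2:**
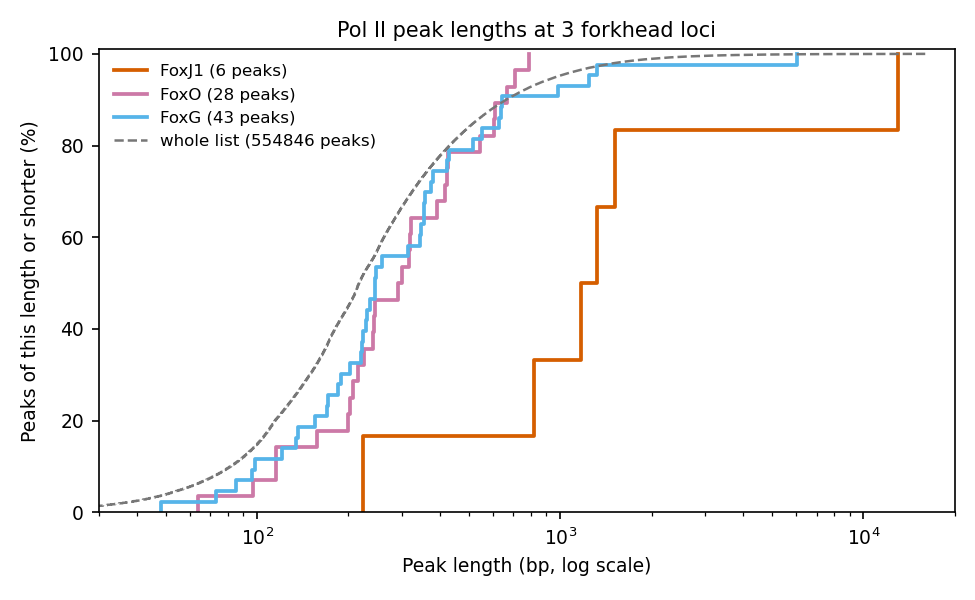
Cumulative share of peaks (%) by peak length (bp, log axis) at the FoxJ1, FoxO and FoxG loci and in the whole list (dashed). FoxO ends at 790 bp, FoxG follows a similar course up to its 6047 bp peak, and 4 of the 6 FoxJ1 peaks are of 1000 bp or more; of all peaks 4.71% reach 1000 bp.

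All 4 FoxO CRMs overlapped several peaks, and each was covered in part. FoxO_Ur_02 had the most, 1655 of 2512 bp under 4 peaks (65.9%), followed by FoxO_Ur_03 with 1213 of 2620 bp under 2 peaks (46.3%) and FoxO_Ur_01 with 1024 of 2724 bp under 5 peaks (37.6%). FoxO_Dr_02 had the least, 1034 of 3159 bp under 4 peaks (32.7%). The CRM nearest the gene on the upstream side therefore had less cover than both CRMs farther out. FoxO has no CRM with the letter I, and the 6812 bp between FoxO_Ur_01 and FoxO_Dr_02 held 9 peaks that covered 41.9% of it. The longest stretch without a peak, 2569 bp after position 153903, began inside FoxO_Dr_02 and reached into that interval. FoxO_Ur_01 and FoxO_Ur_02 were separated by 676 bp with no peak.

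Cover at FoxO was only partly set apart from its surroundings. The 20 kb on the high-coordinate side of the locus, which is the upstream side, were covered over 45.9%, above the 39.7% of the locus itself, and held a peak of 1740 bp. On the low-coordinate side cover was 24.4% and the longest peak 472 bp. Outside the locus, Scaffold199 was covered over 20.7%.

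FoxG had 43 peaks on Scaffold3 from 2042932 to 2085721, with a median length of 245 bp and a range of 48 to 6047 bp. The longest, from 2073631 to 2079677, was at place 523 in the list and place 4 of 1618 on its scaffold. FoxG and FoxJ1 each held 1 peak of 6000 bp or more, a class that made up 0.0955% of the whole list. Such peaks were common at the gene loci, however. By longest peak FoxJ1 was at place 5 and FoxG at place 18 of the 37 loci, and the median over the other 34 loci was 5110 bp. A gap of 5 bp separated the 6047 bp FoxG peak from the next, of 628 bp, and gaps of 5 bp or less made up 0.529% of all gaps in the list. The other FoxG peaks of over 1000 bp were of 1321 bp (2067774 to 2069094) and 1241 bp (2081462 to 2082702). The first of them touched no CRM and lay in the 4504 bp between FoxG_Ur_02-2 and FoxG_Ur_01, and the second overlapped FoxG_Dr_03. Removing the 6047 bp peak lowered the cover of the FoxG locus from 47.1% to 33.0%. In the 20 kb beyond each border of the locus, cover was 43.6% on the low-coordinate side and 41.5% on the high-coordinate side. The longest peak there was of 3112 bp, and outside the locus Scaffold3 was covered over 26.7%. Cover of the FoxG locus was thus little above that of its near surroundings.

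FoxG CRMs differed by side. The 3 downstream CRMs were covered over 100% (FoxG_Dr_01, 2990 bp under 1 peak), 93.5% (FoxG_Dr_02, 2676 of 2861 bp) and 60.3% (FoxG_Dr_03, 1310 of 2174 bp). The 8 upstream CRMs had a median of 37.7% and ran from 14.4% (FoxG_Ur_04, 244 of 1692 bp under 1 peak) to 67.6% (FoxG_Ur_02-3, 850 of 1257 bp under 2 peaks), so the sides overlapped only between 60.3 and 67.6%. FoxG_Ur_01, which shares 29 bp with FoxG_Dr_01 and reaches into the long peak, was covered over 49.1%. This overlap leaves no sequence for the gene between the upstream and downstream CRMs of FoxG. Whether the long peak lies on the gene or downstream of it therefore cannot be told here. The other upstream CRMs were FoxG_Ur_07 with 53.6%, FoxG_Ur_06 with 39.2%, FoxG_Ur_05 with 36.1%, FoxG_Ur_03-2 with 33.1% and FoxG_Ur_02-2 with 24.6%. Cover therefore did not fall steadily with distance from the gene, since the outermost CRM had more than 6 of the 7 others. FoxG_Dr_01 and FoxG_Dr_02 share the 6047 bp peak, so the downstream values are not independent of each other.

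**Figure D3:**
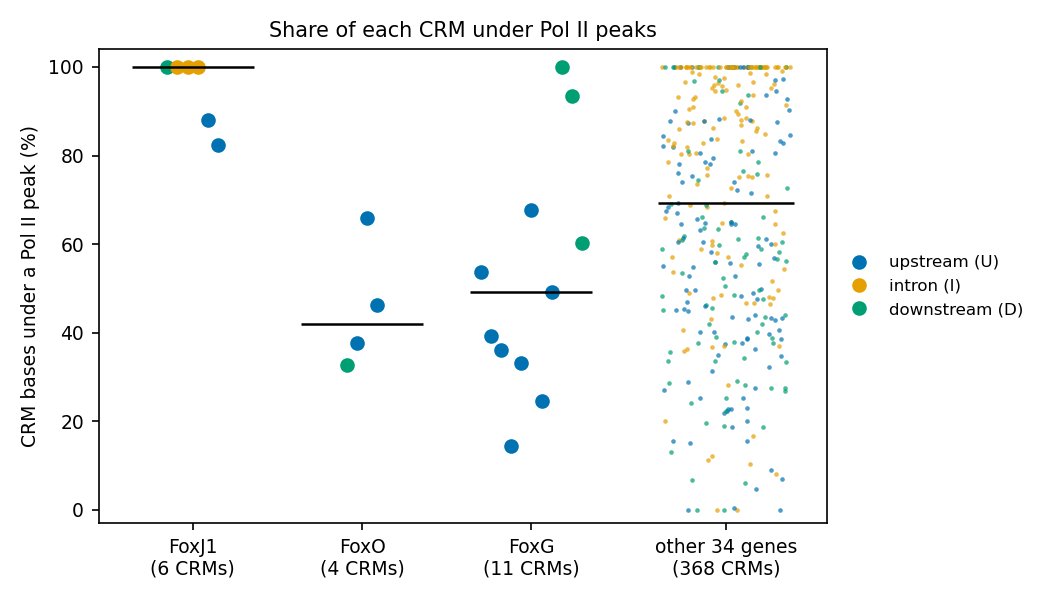
Share of each CRM under Pol II peaks (%, each point is 1 CRM, coloured by the letter in its name) at FoxJ1, FoxO and FoxG and at the other 34 genes; horizontal lines are medians. FoxJ1 CRMs lie at 82.4% or above, FoxO CRMs between 32.7 and 65.9%, FoxG CRMs between 14.4 and 100%, and the line of the other 368 CRMs is at 69.2%. Of these 368 CRMs, 163 are intron CRMs, a letter that FoxO and FoxG lack.

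Over the 3 genes, 21 of 21 CRMs overlapped a peak, where 98.5% of all 389 CRMs did, so the presence of a peak does not set these genes apart. Entirely under 1 peak lay 5 of the 21 CRMs (4 at FoxJ1, 1 at FoxG and 0 at FoxO), against 20.1% of all CRMs. The median cover was 60.3% over the 21 CRMs and 69.2% over the other 368. By gene it was 100% at FoxJ1, 49.1% at FoxG and 41.9% at FoxO. The sets differ in their letters, since 3 of the 21 CRMs, all at FoxJ1, were intron CRMs, against 163 of the other 368. Intron CRMs had the highest median of the 3 letters, so the medians over all letters are not like for like. By letter, the 13 upstream CRMs of the 3 genes had a median of 46.3% and the other 120 upstream CRMs one of 57.6%. The 5 downstream CRMs had a median of 93.5% and the other 85 downstream CRMs one of 55.9%. The 3 genes did not share this, since the only downstream CRM of FoxO was at 32.7%. Those at 100% lay under the longest peaks of FoxJ1 and FoxG. The 3 intron CRMs, all at FoxJ1, were at 100%, and the other 163 intron CRMs had a median of 89.95%. These medians describe regions of 1 pooled list, and no difference between them was tested.

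CRMs were covered more than the remaining sequence of their loci, outer 2 kb included, at all 3 genes. At FoxJ1 94.0% of CRM sequence and 48.0% of the rest was under peaks, at FoxO 44.7% and 35.3%, and at FoxG 54.7% and 35.5%, after overlapping CRMs were merged. The same direction held at 30 of the other 34 loci, where the medians were 67.1% for CRMs and 44.0% for the rest. The remaining sequence includes the outer 2 kb of each side. At FoxJ1 the difference came from these outer parts alone, which were covered over 2.5 and 17.2%. The stretches between FoxJ1 CRMs were covered over 100%, more than the CRMs themselves.

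Pol II cover on both sides of the gene-facing edge of the nearest upstream CRM was compared next, a comparison chosen after the data were seen. This edge is not an annotated transcription start site, since gene models of this genome version were not used here. At FoxJ1 the upstream CRM FoxJ1_Uf_01 and the intron CRM FoxJ1_If_01 share 49 bp at the edge. Where the FoxJ1 gene begins relative to the edge therefore cannot be told here. The edge was under a peak in FoxJ1 and FoxG and not in FoxO, and it was under a peak in 88.6% of the 35 genes that have such an edge. Counted from the edge with upstream negative, the long FoxJ1 peak ran from -1066 to 11936 bp and the long FoxG peak from -840 to 5207 bp. Both were longer than the median of 3650 bp over the 29 other genes with a peak at the edge, and 11 of these had a peak longer than that of FoxG. At FoxO the first peak past the edge began 110 bp downstream and was 607 bp long.

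The downstream side was covered more than the upstream side at all 3 genes in the first 5 kb. Cover was 100% downstream and 30.8% upstream at FoxG, a difference of 69.2 percentage points, where the other 32 genes had a median of 12.3 and a range of -33.3 to 62.3 points. This was place 1 of 35 genes at 5 kb only. FoxJ1 had 100% downstream and 81.7% upstream (18.3 points), and FoxO 56.7% downstream and 37.9% upstream (18.9 points). Downstream cover of 100% was not particular to FoxG and FoxJ1, as Chordin, Dlx, Elk, Gsc and IrxA, among others, had it too. The long FoxG peak ended at 5207 bp, just past the 5 kb window. At 22 of the other 32 genes the downstream side was covered more, with median covers of 86.5% downstream and 64.5% upstream. The size of the difference and the order of the genes depended on the window. At FoxG it was 40.8 points with 2 kb on each side and 41.9 points with 10 kb, at place 6 of 35 and place 9 of 34 genes, with 4 and 8 of the other genes above it. At FoxJ1 it was 11.2 points with 2 kb and 37.3 points with 10 kb. At FoxO it was 44.2 points with 2 kb and -4.05 points with 10 kb, where the downstream side had less cover.

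**Figure D4:**
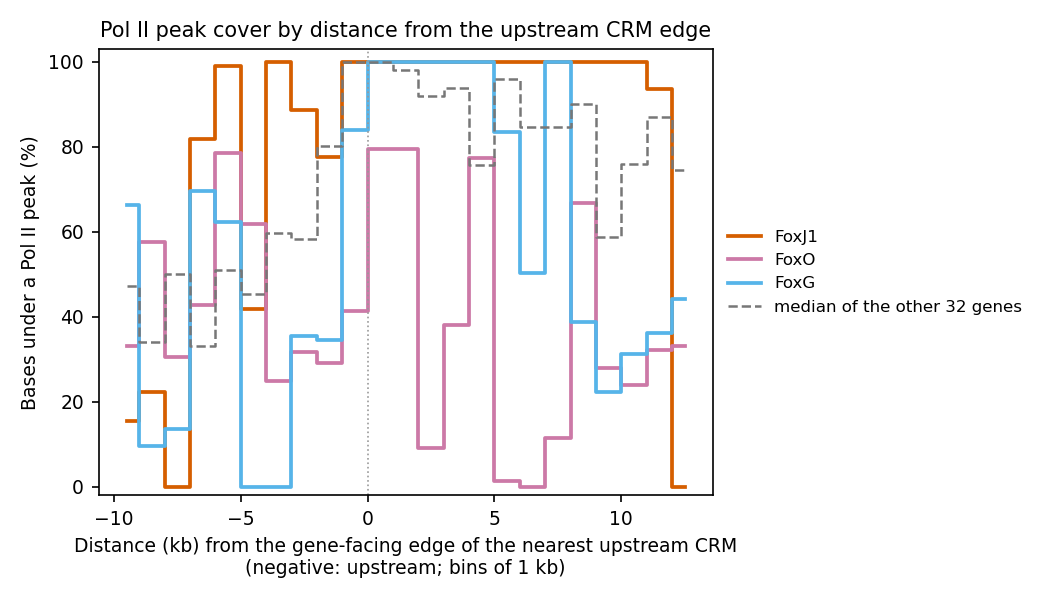
Bases under a Pol II peak (%) in bins of 1 kb by distance (kb) from the gene-facing edge of the nearest upstream CRM, negative upstream, for FoxJ1, FoxO, FoxG and the median of the other 32 genes (dashed; 31 genes in the bins beyond -5 kb). FoxG stands at 0% in 2 bins upstream and at 100% in the first 5 bins downstream, FoxJ1 is at 100% in the first 11 bins downstream, and FoxO stays below 80% throughout.

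Per 1 kb bin, FoxJ1 was at 100% from -1 to 11 kb and at 0% from 12 to 13 kb. FoxG was at 84.0% in the bin just upstream and at 0% from -5 to -3 kb, where the other genes had medians of 45.4 and 59.7%. FoxO had 41.5% in the bin just upstream and 79.5% in each of the first 2 bins downstream, against medians of 100%, 100% and 98.1% over the other genes. Peaks were assigned to the side of the edge that held their centre. FoxO had 14 peaks downstream in 11971 bp and 14 upstream in 11880 bp, and median peak lengths of 273 and 305 bp. At FoxG the downstream part held 9 peaks with a median of 422 bp and the upstream part 33 peaks with a median of 244 bp, and 1 further peak was centred outside the locus.

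FoxB, FoxK and FoxN23 are the other forkhead genes with tested CRMs. Their loci were covered over 33.3% (FoxB), 33.4% (FoxK) and 70.4% (FoxN23). FoxN23, a gene known in sea urchins for its role in skeletogenic mesoderm, reached its cover with 93 peaks of at most 3288 bp, 23 of them of 1000 bp or more. FoxK, with 27 peaks of at most 2150 bp, had a difference at the upstream edge of 62.3 points with 5 kb on each side (78.9% downstream and 16.6% upstream). FoxG was above FoxK with 5 kb (69.2 points) and below it with 2 kb (40.8 against 50.6 points) and 10 kb (41.9 against 58.6 points). FoxB, with 28 peaks of at most 1413 bp, had 1 of its 9 CRMs without a peak. Forkhead genes therefore spread over most of the range of the 37 loci, from place 3 (FoxJ1) and 10 (FoxN23) to 27 (FoxG), 29 (FoxO), 33 (FoxK) and 34 (FoxB).

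**Figure D5:**
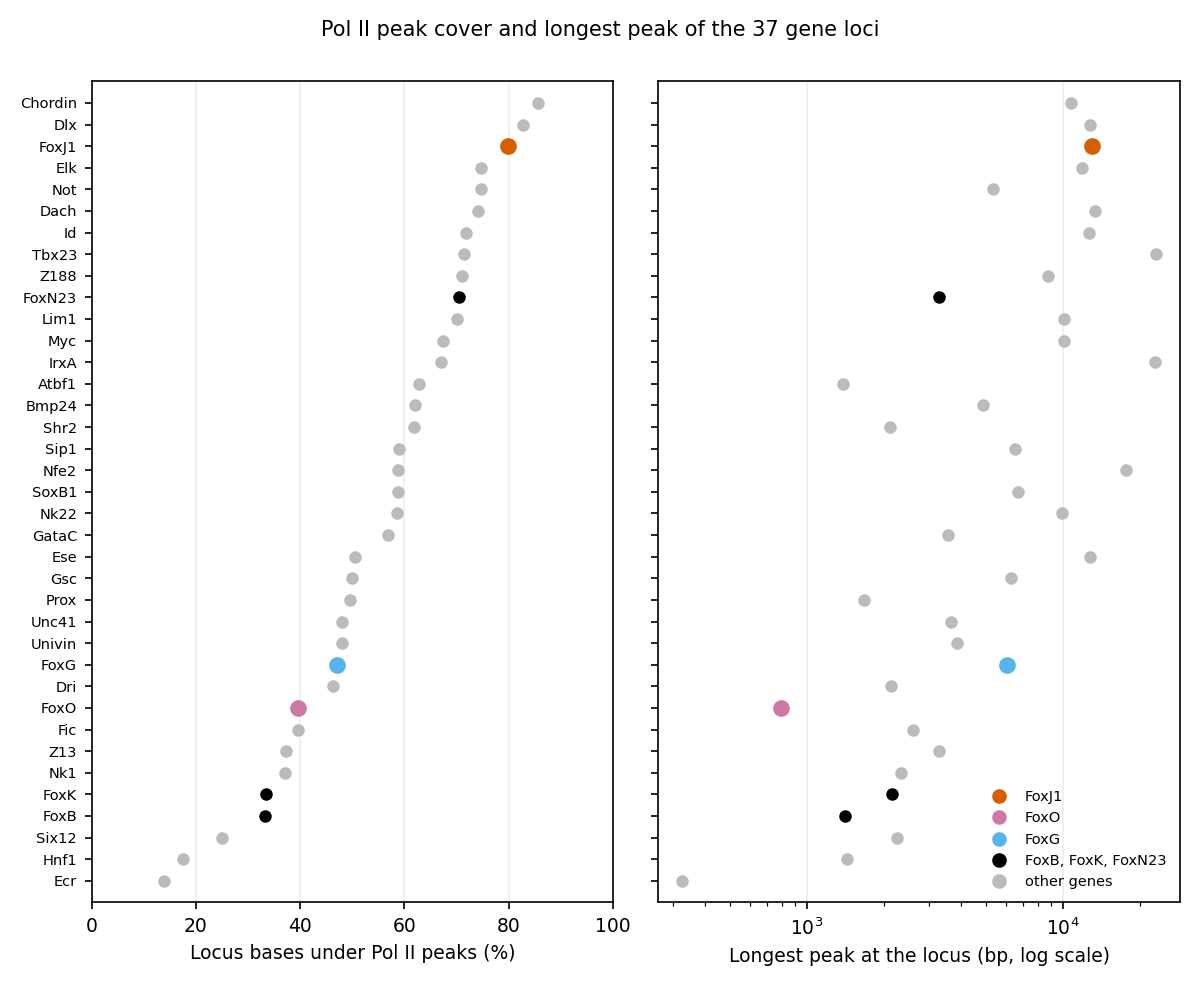
Locus bases under Pol II peaks (%, left) and longest peak at the locus (bp, log axis, right) for the 37 genes with tested CRMs, ordered by cover from the top. FoxJ1 is at 79.9% with a 13002 bp peak, FoxG at 47.1% with 6047 bp and FoxO at 39.7% with 790 bp, place 36 of 37 by longest peak.

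The genes nearest to each member by the cover of the locus were then set beside it. FoxJ1 had a longest peak of 13002 bp, close to the 12820 and 11952 bp of its nearest genes Dlx (82.8%) and Elk (74.8%). FoxJ1 had 0.266 peaks per kb, against 0.480 at Dlx and 0.664 at Elk, and its locus of 22574 bp is shorter than theirs of 41708 and 42190 bp. FoxO had a longest peak of 790 bp, against 2610 and 3278 bp at its nearest genes Fic (39.5%) and Z13 (37.2%). FoxG had one of 6047 bp, against 2139 and 3881 bp at Dri (46.3%) and Univin (48.0%). Each pair is the nearest of 34 genes on 1 measure in 1 pooled list.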

How the data were processed

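The authors combined the replicates, aligned single-end reads to version 3.1 of the genome with Bowtie 2 and called peaks on the combined ChIP against the combined input with MACS at default settings; the submitters' processing notes name CASAVA 1.8, Bowtie 1.0.1 and MACS 1.4.2, so the aligner differs between these sources. The deposited list gives positions in bp counted from 0 and no count, score or signal. A peak's length therefore depends on depth and on how the caller joined enriched stretches, and weak and strong peaks of one length weigh the same.

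CRM names, starts and ends were taken from the study's list of tested regions, with length as end minus start; its reporter and signal columns were not used here. Whether its positions count from 0 or 1 is not given in the sources used here. Loci, covered bases, gaps and ranks were computed with Python 3.11.15, numpy 2.4.6 and pandas 2.3.3, and plotted with matplotlib 3.10.9. Intervals came from scipy 1.17.1. The counting functions were tested on simulated peaks. The text names every CRM of the 3 genes, the 3 longest peaks at each locus, the other forkhead genes and the 2 genes nearest in cover to each member. The comparison at the upstream edge, its bins and any other named peak or gene were chosen after the values were seen. Other peak length minimums, flanks, overlaps and joined peaks were tried. The members and lists were chosen with earlier results of these data known. The gene table at hand is of the assembly Spur_5.0; it names 2 of the 3 genes and was not used for positions, and no sequence of the loci was used here.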

Additional observations from a re-analysis of the deposited data

How the results depend on the processing

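No paired analysis was possible because every replicate went into 1 peak list, and none could be left out for the same reason. Of 60 values under other settings, 38 stayed within the limits set, 21 moved past them and 1 changed sign. The limits were a 95% Wilson interval over bases for cover (bases are not independent, so these intervals are narrow), a factor of 1.5 for counts, 1 SD over CRMs for medians and 1 SD over the other genes for the difference between both sides of the upstream edge. With peaks of at least 300 bp only, cover was 79.0% at FoxJ1, 28.7% at FoxO and 37.2% at FoxG, and 14 peaks remained at FoxO and 19 at FoxG; with at least 150 bp it was 38.0% at FoxO and 45.3% at FoxG. With no flank, cover was 94.96% at FoxJ1, 41.3% at FoxO and 48.8% at FoxG. With 5 kb on each side it was 73.6% at FoxJ1 and 45.6% at FoxG, and FoxJ1 had 12 peaks. Without the longest peak of each locus, cover was 22.3% at FoxJ1, 36.4% at FoxO and 33.0% at FoxG, and of the settings run for cover only this one changed the order of the 3 loci. With at least 50% of a CRM required under peaks, 6 of 6 FoxJ1, 1 of 4 FoxO and 5 of 11 FoxG CRMs counted. The share of all 389 CRMs at this cut-off is not given here. Their median cover was 68.8%, with a lower quartile of 45.1%, so most of them would count too. The windows at the upstream edge were varied after the data were seen: 2 kb on each side gave 11.2 points at FoxJ1, 44.2 at FoxO and 40.8 at FoxG, and 10 kb gave 37.3 at FoxJ1, 41.9 at FoxG and -4.05 at FoxO, the only reversal. The list gives no depth per peak, so a stretch without a peak is one where none was detected at an unknown depth.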
